A study of Mus musculus with 2 samples.

Results

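GATA4 chromatin immunoprecipitation sequencing (ChIP-seq) was made in cultured mouse myoblasts, the proliferating precursors of skeletal muscle. It gave dense chains of peaks at Mapk6 on chromosome 9 and from the end of Midn past its neighbour Cirbp on chromosome 10. The 3 genes were chosen by the number of peaks close to them in the same list, so these numbers are a description and carry no test. All peaks with a centre in the span of a gene or within 50 kb of it were taken as members, which gave 25 of the 17539 peaks, 12 at Mapk6 and 13 at Cirbp and Midn. The members farthest out lay 36.8 kb from Mapk6 (score 288) and 41.4 kb from the Midn span (score 105), and the nearest peaks beyond the limit lay at 81.4 kb (score 83.3) and 70.4 kb (score 84.0).

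The myoblasts were grown from satellite cells of STOCK Myf5tm1Pas/J mice, a stock that carries a targeted Myf5 allele, in growth medium with serum and basic fibroblast growth factor. A GATA4 library, precipitated with a mixture of 3 GATA4 antibodies, and an IgG library, precipitated with control IgG, were made from such cells, and whether the allele was present in 1 or both copies is not stated. Each antibody has 1 library without a replicate, and values are therefore given without an error between libraries. Only the peak list of the GATA4 library was analysed here; its depth is unknown, and no IgG background can be set beside a peak. Peaks in such a list cannot show whether the cells expressed muscle markers.

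GATA4 is a zinc finger transcription factor, best known from heart, that binds DNA at GATA sequences. Mapk6 encodes ERK3, an atypical MAP kinase that is turned over quickly by the proteasome, works with the kinase MK5 and accumulates when cultured myoblasts differentiate. Cirbp encodes a cold-inducible RNA-binding protein, which rises in cells kept at mild hypothermia and binds many transcripts. Midn encodes midnolin, a protein with a ubiquitin-like domain that carries nuclear proteins, including immediate early transcription factors, to the proteasome.

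Each of the 3 genes had a peak over an annotated start site. The bases upstream of these start sites are shown because the peaks covered all 250 of them in each case. They are the RefSeq promoter sequences of GRCm38, read in the direction of transcription and ending at the base before the start. Capitals mark GATA and the GC box GGGCGG, each on either strand, so that they also appear as TATC and CCGCCC.
Mapk6 (chr9:75410017-75410266, minus strand): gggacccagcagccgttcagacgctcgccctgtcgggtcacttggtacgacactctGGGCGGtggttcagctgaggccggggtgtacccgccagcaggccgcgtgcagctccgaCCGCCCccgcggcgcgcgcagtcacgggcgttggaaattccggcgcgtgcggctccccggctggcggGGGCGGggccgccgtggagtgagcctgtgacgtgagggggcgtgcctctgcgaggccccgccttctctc
Midn, downstream start site (chr10:80149432-80149681, plus strand): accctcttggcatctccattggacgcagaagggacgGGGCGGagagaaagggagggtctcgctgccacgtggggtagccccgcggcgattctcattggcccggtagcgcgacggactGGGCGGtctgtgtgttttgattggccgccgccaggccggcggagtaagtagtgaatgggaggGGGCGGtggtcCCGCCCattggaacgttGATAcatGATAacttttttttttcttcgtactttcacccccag
Cirbp, upstream start site (chr10:80167589-80167838, plus strand): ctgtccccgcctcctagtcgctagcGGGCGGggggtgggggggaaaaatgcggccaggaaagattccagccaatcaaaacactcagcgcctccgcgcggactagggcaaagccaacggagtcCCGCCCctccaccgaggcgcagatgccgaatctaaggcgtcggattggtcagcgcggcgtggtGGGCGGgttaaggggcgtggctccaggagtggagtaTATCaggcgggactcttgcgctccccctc

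The Midn sequence held GATA at 43 to 40 and at 36 to 33 bases before the start site. The second of these was part of TGATAA. In the Cirbp sequence the reverse complement of GATA stood at 29 to 26 bases before the start, and in the Mapk6 sequence these 4 letters did not occur on either strand. GC boxes, to which factors of the SP family bind, numbered 3 in Mapk6, 4 in Midn and 3 in Cirbp.

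The RefSeq promoter sequences used here gave 2 start sites for each gene, and so 6 upstream windows of 250 bases. The annotated spans of Midn and Cirbp begin 2267 and 1849 bp before the first of these start sites, and no window was examined there. An AGATAA or AGATAG or TGATAA or TGATAG, searched on both strands, was present in 1 of the 6, or 16.7%, against 26.5% of all 32851 windows in the table and 21.2% of the 2004 windows whose promoter a peak overlapped. GATA alone was present in 3 of the 6, against 53.6% of all windows and 47.2% of those overlapped by a peak. All 6 windows held a GC box, against 32.7% and 53.8%. Their median GC content was 70.8%, against 52.4% and 59.2%, and their median number of CG dinucleotides was 26, against 6 and 16. The windows of the downstream Mapk6 start site and of the upstream Midn start site were overlapped by no peak. Neither held one of the longer motifs, and only the Midn one held GATA. The 6 windows are therefore a different kind of set from those overlapped by a peak. Windows of the same gene lie close together and are not independent, and most of the 25 peaks lay outside the promoter windows, so their sequence was not examined.

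Mapk6 spans 23235 bp, chr9:75386782-75410016, and is transcribed from the higher coordinate downwards. Its peaks began at the promoter and followed each other through most of the gene. The start site peak, chr9:75409687-75410799, scored 117 and was 1113 bp wide. It covered the upstream start site of Mapk6 as well as that of the lncRNA gene 4933433G15Rik, which begins 168 bp away and runs in the opposite direction, and its position alone does not tell these genes apart. The second annotated start site of Mapk6, 657 bp further into the gene, was outside this peak.

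Inside the gene lay 8 more peak centres. Nearest the start, a peak 2.0 kb downstream (chr9:75407375-75408664) scored 109, which is close to the median of all 17539 peaks, 99.3. The next were weaker, with scores of 57.3 at 4.92 kb (chr9:75404770-75405419) and 75.5 at 6.28 kb (chr9:75403082-75404392). The first of these was among the weakest of the list, since 2.22% of all peaks scored lower.

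Farther into the gene the scores were higher again. At 9.03 kb from the start a narrow peak of 478 bp (chr9:75400752-75401229) scored 110, and at 12.0 kb a peak of 957 bp (chr9:75397548-75398504) scored 101. Then came scores of 87.6 at 13.7 kb (chr9:75395899-75396652) and 64.7 at 15.6 kb (chr9:75394051-75394791). The last peak inside the gene, chr9:75392276-75393118, lay 17.3 kb from the start and had the highest score of those in the gene, 133. Scores therefore did not fall off with distance from the start site, and no peak centre lay in the stretch from there to the end of the gene.

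Together the start site peak and the 8 peaks inside Mapk6 formed a chain of 18.5 kb, of which the peaks covered 8137 bp, or 43.9%. Their centres were 1358 to 2965 bp apart, with a median of 2039 bp, and the gaps between their edges ran from 377 to 2247 bp. Across the whole list, neighbouring centres were a median of 46.9 kb apart, with quartiles of 12.6 and 129 kb. The chain held scores from 57.3 to 133 with a median of 101, so it was dense without being made of high-scoring peaks.

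The strongest peaks of the Mapk6 window were not in the gene. A peak of 1715 bp at chr9:75361738-75363452, 24.2 kb beyond the downstream end of Mapk6, scored 322, higher than 98.5% of all peaks. Another, chr9:75349621-75350372, scored 288 and lay inside Bcl2l10, a gene of the BCL2 family of cell death regulators, 36.8 kb from Mapk6. A peak on the other side, chr9:75422156-75422877, lay 12.5 kb upstream of the Mapk6 start and scored 128. Leo1, which encodes a subunit of the PAF1 transcription elongation complex, and Gnb5, a G protein beta subunit gene, had none in their spans or within 1 kb.

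**Figure D1:**
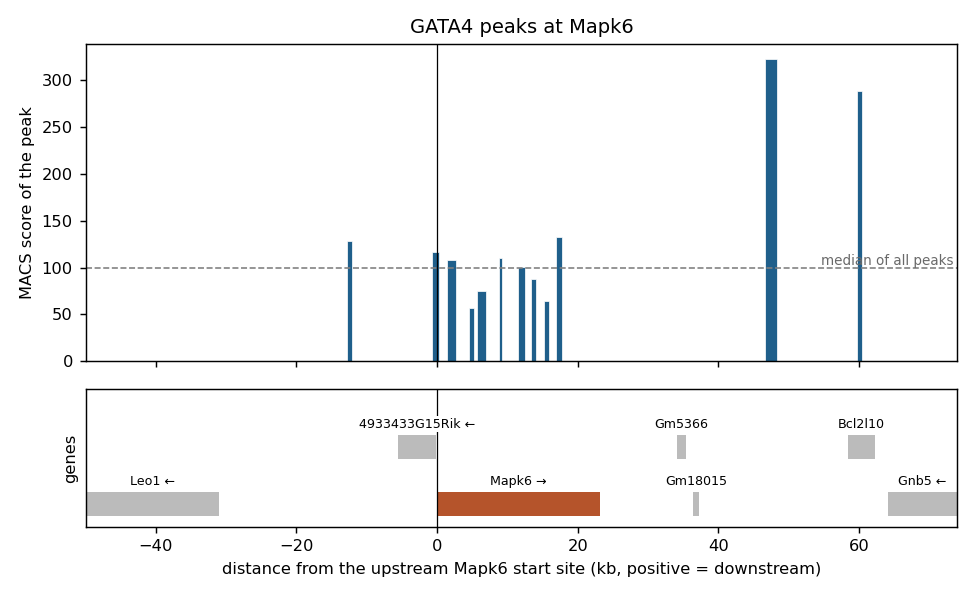
GATA4 peaks within 50 kb of Mapk6. Bars stand at each peak's distance from the upstream start site of Mapk6 in kb, with the peak's width and its MACS score as height; the dashed line is the median of all peaks, 99.3, and the lower panel shows gene spans with arrows for the direction of transcription where it is known. The 9 peaks from the start site to 17.3 kb score 57.3 to 133, and the 2 peaks far downstream score 322 and 288.

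On chromosome 10 the order of genes is Midn, then Cirbp, then Fam174c, all transcribed towards higher coordinates. Midn spans 12364 bp, chr10:80146005-80158368, and Cirbp spans 6797 bp, chr10:80165990-80172786. Within 50 kb the Midn window held 13 peaks and the Cirbp window 11, all of which were among those 13. Within 10 kb each had 9, of which 7 were the same peaks, so the genes do not give independent counts.

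At Midn itself there was 1 peak centre inside the gene. That peak, chr10:80148768-80149797, scored 97.5, was 1030 bp wide and covered the downstream one of the 2 start sites used here, which are 1410 bp apart. No peak covered the beginning of the annotated span, 2267 bp before the upstream start site. The body of Midn beyond it was free of peak centres up to its end. A peak with a score of 80.3, chr10:80140857-80141760, lay 4.70 kb before the span, inside Atp5d, the gene of the delta subunit of mitochondrial ATP synthase.

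Most of the chain lay in the stretch between Midn and Cirbp. This stretch is 7621 bp long, and 5 peaks had their centres there. With the edge of a sixth peak, centred inside Cirbp, 45.8% of its bases were covered. The first, chr10:80158141-80158803, overlapped the end of Midn and scored 68.3. The following 3 peaks almost touched, with gaps of 27 and 48 bp between them. They scored 88.5 (chr10:80159699-80160672), 112 (chr10:80160700-80161466) and 52.2 (chr10:80161515-80162294), the last of them the weakest of the 25 members. Joining peaks over gaps of up to 500 bp left 10 of the 13 peaks of the locus, and how the caller divided the signal here was not tested.

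Closer to Cirbp the scores were higher, and at the 2 start sites used here they were low again. A peak of only 370 bp, chr10:80163822-80164191, lay 3.83 kb before the upstream start site and scored 167, the highest of the locus and above 84.0% of all peaks. At 1.74 kb before that start site a peak of 559 bp, chr10:80165822-80166380, scored 124. This peak covered the beginning of the annotated span of Cirbp, which lies 1849 bp before the first start site given in the promoter table. Its centre was inside the span. The scores of 167 and 124 were carried by 236 and 487 peaks of the list, so the rise rests on shared values.

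Cirbp had a peak over each of the 2 start sites used here, which are 332 bp apart. These were chr10:80167312-80168055, with a score of 64.6, and chr10:80168124-80168880, with a score of 64.0. They were separated by 68 bp, and fewer than 8% of the peaks in the list scored lower than either, with 7.69% below the first and 6.86% below the second. The body of the gene downstream was free of peak centres. The next peak, chr10:80172946-80173471, scored 110 and lay 0.422 kb beyond the end of Cirbp, at the beginning of Fam174c.

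The chain from the end of Midn to Fam174c counted 9 peaks over 15.3 kb, 40.0% of it covered. Centres were 819 to 4707 bp apart with a median of 1648 bp, and scores ran from 52.2 to 167 with a median of 88.5, below the median of the list. The largest step was the one across the body of Cirbp. Unlike at Mapk6, where peaks stood inside the gene, here they stood mainly before the gene that follows.

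The 2 remaining peaks of the locus lay at or near the starts of other genes. A peak with a score of 85.6, chr10:80115157-80116197, covered the start site of Stk11, which encodes the kinase LKB1. Another, chr10:80104172-80105046, scored 105 and lay 1.91 kb before the nearest start site of Sbno2, a transcriptional regulator gene, inside its annotated span. Cbarp, a calcium channel regulator gene, had the Atp5d peak within 1 kb of its span, and Efna2, the ephrin-A2 gene, had no peak within 1 kb.

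**Figure D2:**
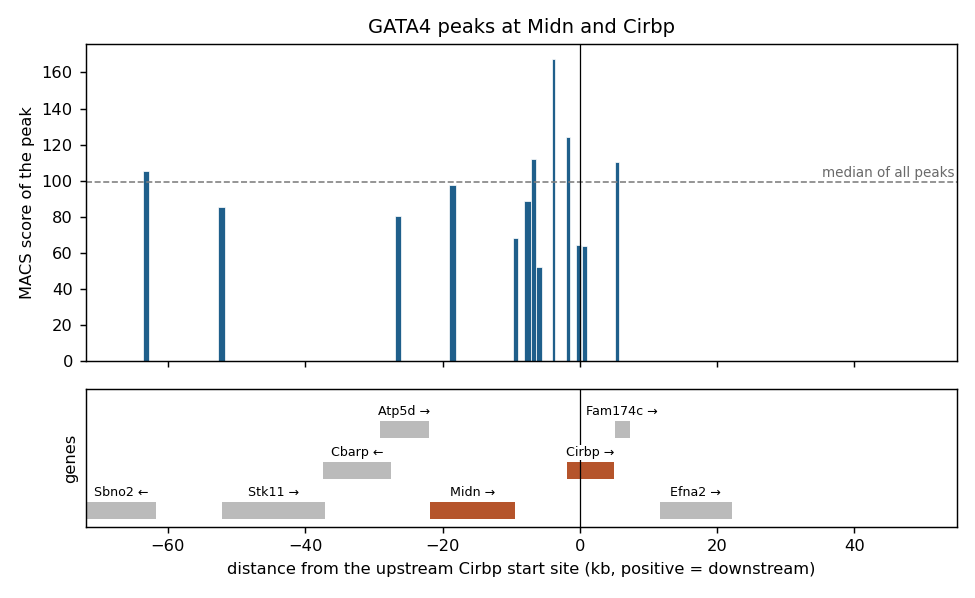
GATA4 peaks within 50 kb of Midn and Cirbp. Bars stand at each peak's distance from the upstream start site of Cirbp in kb, with the peak's width and its MACS score as height; the dashed line is the median of all peaks, 99.3, and the lower panel shows gene spans with arrows for the direction of transcription. The chain of 9 peaks runs from the end of Midn to Fam174c, with the highest score, 167, at 3.83 kb before the upstream Cirbp start site. Scores are 64.6 and 64.0 at the 2 Cirbp start sites used here and 124 at the beginning of its annotated span. The score of 167 is carried by 236 peaks of the list.

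Scores and widths separated the 2 loci only in part. The 12 peaks of the Mapk6 locus scored 57.3 to 322 with a median of 109, and 8 of them were above the median of the list. The 13 peaks of the Cirbp and Midn locus scored 52.2 to 167 with a median of 88.5, and 5 were above it. The ranges overlapped, and at Mapk6 only the 2 distal peaks downstream of the gene scored above the highest peak of Cirbp and Midn. Widths had medians of 799 bp at Mapk6 and 767 bp at Cirbp and Midn, against 745 bp over all peaks, whose quartiles were 589 and 899 bp.

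Compared with Btg2, an antiproliferative gene with a similar chain, and with the myogenic regulators Myod1 and Myf5, the loci of Mapk6 and of Cirbp and Midn had more peaks, with lower median scores. Btg2 had 9 peaks within 50 kb, with scores of 53.7 to 204 and a median of 112. Myod1 had 6, from 110 to 250 with a median of 155, and Myf5 had 3, from 94.0 to 229 with a median of 138. Narrow peaks with shared scores occurred here too. The Myod1 scores of 110 and 124 were carried by 607 and 487 peaks of the list. The Myf5 median was the score of a peak of 379 bp, and the same score recurred at Tnpo1 and Junb. The stock carries a targeted Myf5 allele, and whether this affects the peaks at Myf5 was not tested. Peaks are not replicates and no test was made of these differences.

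**Figure D3:**
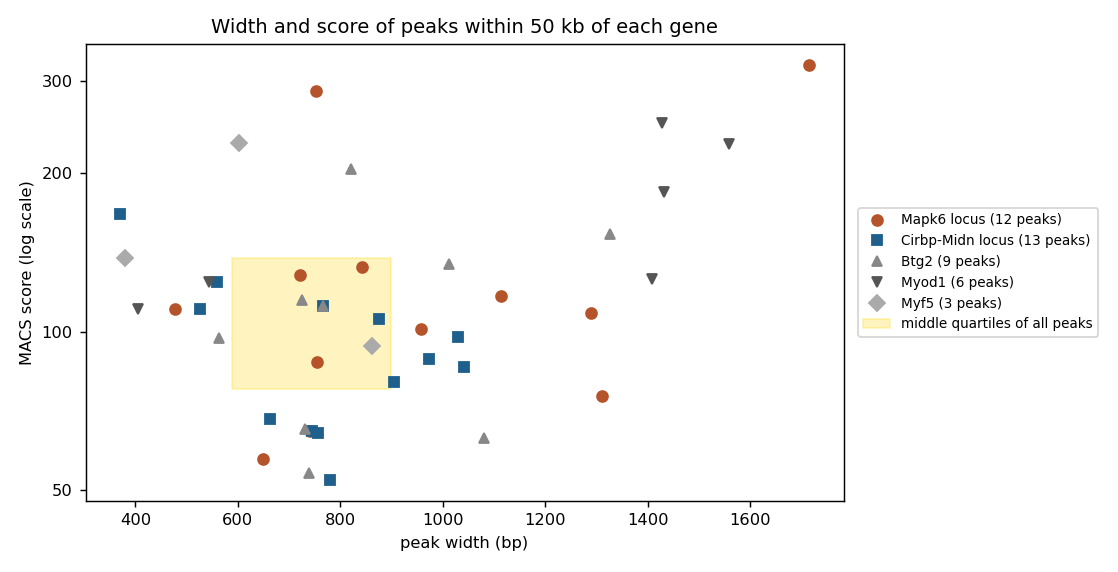
Width in bp and MACS score, on a log scale, of each peak within 50 kb of the gene named, with the middle quartiles of all peaks shaded. The Mapk6 locus reaches a score of 322, the Cirbp and Midn locus stays at or below 167, and 4 of the 6 Myod1 peaks are 1409 to 1559 bp wide.

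Set against all 21887 protein coding genes, the 3 genes stood at the upper end for peaks per gene, as follows from how they were chosen. Mapk6, Cirbp and Midn each had 9 peak centres in the span or within 10 kb of it. At least 9 were found for 117 genes, or 0.535%, and the median gene had 0. The genes with the most were very long. Pakap had 25, Dlg2 23, Zbtb20 20, Pde4d 19, and Anks1b, Dlgap1, Lama2 and Nfia 18 each. Nav3 had 17, and Aopep, Palld, Pard3b and Stard13 had 16 each. Their spans ran from 361 kb for Aopep to 1970 kb for Dlg2.

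Among the 14381 protein coding genes with a span of up to 30 kb, Mapk6 was the only one with 8 peak centres inside the span. The next highest count was 5, found in 2 genes, and Cirbp with 3 and Midn with 1 were less unusual. Counting 10 kb around the span, only the 3 predicted genes Gm40365 (13), Gm36327 (12) and Gm40367 (11) had more than 9, and Gm40364 also had 9. Of the span of Mapk6, 31.7% was covered by peaks, the largest share among the 10039 protein coding genes of 20 kb or more and rank 65 both among all 21887 and among those of up to 30 kb. For Cirbp the share was 27.8% and for Midn 10.2%. The length limits of 30 and 20 kb were chosen after seeing the data.

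**Figure D4:**
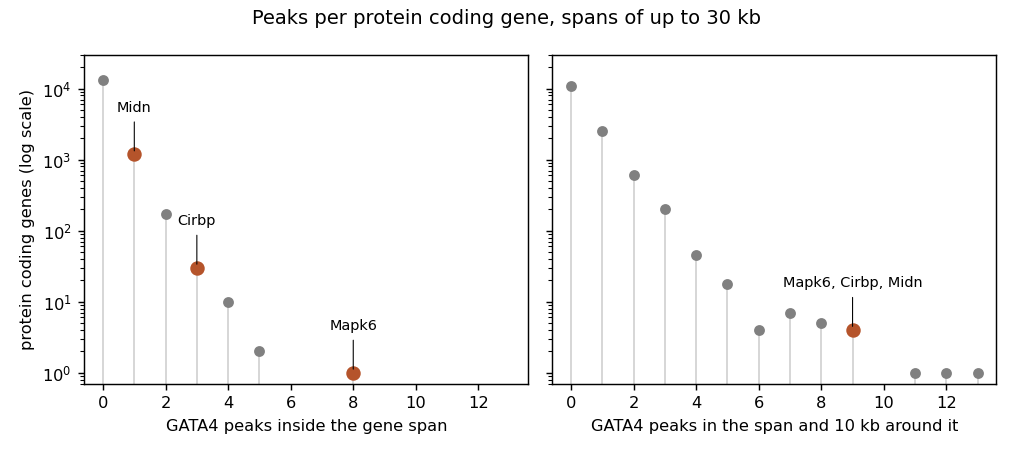
Number of protein coding genes with spans of up to 30 kb, on a log scale, by their number of GATA4 peak centres inside the span (left) and in the span and 10 kb around it (right); coloured points hold the genes named. Mapk6 stands alone with 8 peaks inside its span, and with 10 kb around the span each of the 3 genes has 9.

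Neighbouring peaks were also joined into chains over the whole list where their centres were at most 5 kb apart. This gave 15046 chains, of which 13076 were single peaks. Only 5 had 9 or more peaks, including that of Mapk6 and that of Midn and Cirbp. The 3 longer ones had 17 peaks over the predicted genes around Gm40365 on chromosome 6, 13 around the interferon gene Ifnz on chromosome 4, and 11 on chromosome 8 in a stretch without a protein coding gene. The chromosome 6 and 4 chains lie over runs of neighbouring predicted genes, and the sources used here do not say how reads were divided among similar copies. Chains of 8 peaks were found at Btg2 and at a second place on chromosome 8. Median scores were 101 in the Mapk6 chain and 88.5 in the Midn and Cirbp chain, against 106 over the 171 peaks in chains of 5 or more and 98.4 over single peaks.

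**Figure D5:**
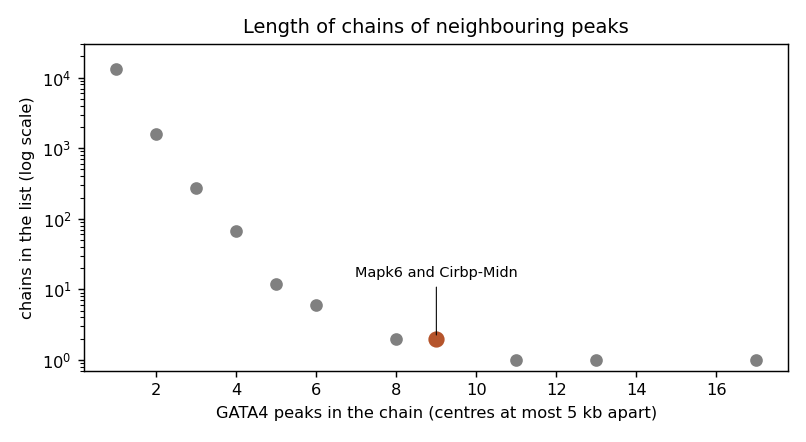
Number of chains in the whole list, on a log scale, by the number of peaks in the chain, where neighbouring centres are at most 5 kb apart. The coloured point is the 2 chains of 9 peaks, at Mapk6 and at Midn and Cirbp, with 1 chain each of 11, 13 and 17 peaks beyond it.

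The surroundings of both loci had fewer peaks, as follows from how the genes were chosen, and nothing is read from this difference. The Mapk6 window held 97.4 peaks per Mb, against 14.0 per Mb in the 500 kb on either side of it. The Cirbp and Midn window held 103 per Mb, against 18.0 per Mb. The Mapk6 window included 4 protein coding genes and the Cirbp and Midn window 8.

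Peaks over promoters were found at a minority of genes. Of 17492 protein coding genes with a start site in the promoter table, 1466, or 8.38%, had a peak that overlapped the window from 250 bases before to 50 bases after a start site. Mapk6, Midn and Cirbp all did, with 1, 1 and 2 of their windows overlapped. Since the genes were chosen for peaks close by, nothing is read from this share.

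Relatives and partners of Mapk6 had peaks without a similar chain. Of 24 other MAP kinases and ERK3 partners, 11 had a peak centre in the span or within 10 kb, or 45.8%, against 33.3% of all protein coding genes. None had more than 3 such peaks. Among them were Pak1 (highest score 253), a p21-activated kinase gene, Cdc42 (197), which encodes a small GTPase, Mapkapk5 (167) and Pak3 (146). Mapkapk5 encodes MK5, the kinase partner of ERK3, and its peak lay 0.117 kb outside the span and overlapped the promoter. Mapk4, which encodes the close relative ERK4, had none within 10 kb.

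Other genes of RNA-binding proteins of the cold and stress response were counted in the same way. Their list also held Tnpo1 and Clock, which do not encode RNA-binding proteins. Of the 21 genes in this list besides Cirbp, 5 had a peak within 10 kb, or 23.8%, against 33.3% of all protein coding genes, and no test was made of this difference. They were G3bp1 (highest score 179), a stress granule protein gene, Tnpo1 (138), which encodes the nuclear import receptor transportin, the splicing regulator gene Tra2b (124), Clock (110) of the circadian oscillator and Rbm3 (84.1). Rbm3 encodes the closest cold-inducible relative of Cirbp and had 2 such peaks.

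For Midn, 6 of 19 partner and substrate genes had a peak within 10 kb, or 31.6%, close to the 33.3% of all protein coding genes. Among them were the immediate early genes Egr2 (highest score 170), Junb (138) and Egr1 (91.6) and the neuronal factor gene Neurod1 (97.0). Of these 4, Egr2 had 2 such peaks and the others 1 each. Nr4a1 also had 1, with a score of 83.4, while the immediate early genes Fos, Fosb, Ier2, Egr3 and Nr4a2 had none.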

How the data were processed

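Reads were handled with CASAVA 1.8 and Bowtie and placed on GRCm38 (mm10), per the submitters' processing notes. MACS, run in Galaxy, gave the peaks, per the file header. Not given in the sources used here are the versions of Bowtie and MACS, the threshold, duplicate handling and the use of the IgG library. A single peak list was deposited, and its score is the authors' value for each peak, compared only within that list. Starts were converted to 1-based positions. Gene spans, start sites and promoter sequences came from RefSeq GRCm38.p6; the promoter table covered 20 chromosomes, and RefSeq exons were not used here. All gene symbols matched. Peaks were assigned by their centre. With 1 library and genes chosen for their peaks, no test was made. The members and lists were chosen with earlier results of these data known.

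Named were the 3 genes, genes of their windows with a peak in the span or within 1 kb, up to 5 genes per list by highest score within 10 kb, the 10 genes with the most peaks with ties, and Btg2, Myod1 and Myf5. Mapk4, Leo1, Gnb5, Efna2 and genes compared by length or chain were chosen after their values were seen. So were Nr4a1 and the immediate early genes named without a peak. Some genes that this rule names are not reported here. Window counts and motif searches were tested on simulated data. Python 3.11.15 with pandas 2.3.3, numpy 2.4.6 and scipy 1.17.1 was used.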

Additional observations from a re-analysis of the deposited data

How the results depend on the processing

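The number of peaks at Mapk6, 12, stayed within 1.5 times of that under all 9 alternatives, from 8 in the span alone and 8 with scores of 100 or more to 13 within 100 kb. The 13 peaks of Cirbp and Midn became 21 within 100 kb, 4 in the gene spans alone, 5 with scores above the list median, 5 with scores of 100 or more and 8 with peaks merged over gaps of up to 1000 bp. These changes follow from the windows and the removal or joining of peaks. Median scores and widths stayed within the 95% binomial intervals of the medians under the windows tried. With only scores above the list median, the median distance between neighbouring centres was 7029 bp in place of 2747 bp at Mapk6 and 5016 bp in place of 2098 bp at Cirbp and Midn, still within their wide intervals. These intervals treat neighbouring peaks of 1 library as independent, and they hold no error between libraries. The alternatives set against them are subsets of the same peaks, so staying inside the intervals is a weak check. Chain limits of 3 and 10 kb, added after seeing the data, gave 9 and 9 peaks at Mapk6 and 8 and 11 at Midn and Cirbp. GATA alone in place of the 4 longer motifs, also added later, was in 3 of the 6 promoter windows instead of 1. The planned motif counts within peaks were not run, since genome sequence was not used here. No paired analysis was possible because there was 1 library per antibody and no test. The depth of the libraries is unknown, and weak peaks such as those at the Cirbp start sites have no replicate check.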

Other observations

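Many peaks of the list carried exactly the same score. A score shared by 100 or more peaks was found in 4 of the 25 peaks at Mapk6, Midn and Cirbp, or 16.0%, and in 25.1% of all 17539 peaks. The 4 were the peak with a score of 110 inside Mapk6, the peaks with scores of 167 and 124 upstream of Cirbp, and the peak with a score of 110 at Fam174c. They were the narrowest of the 25 members, at 370 to 559 bp, while the other 21 were 650 to 1715 bp wide. In the whole list peaks with such a shared score had a median width of 494 bp, against 800.0 bp for the others. The 3 highest scores between Midn and the Cirbp start sites thus included 2 from narrow peaks of this kind. The highest scores given for Mapkapk5, 167, and Tra2b, 124, were the same shared values. Those given for Tnpo1 and Junb, 138, were also identical to each other and to that of a 379 bp peak within 50 kb of Myf5. How many peaks carried this score is not given here.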
